A study of Mus musculus with 16 samples.

Results

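The genes of transforming growth factor beta (TGF-beta), bone morphogenetic protein (BMP) and Smad signalling were followed in mouse fallopian tubes kept in culture with or without progesterone. Members were chosen by gene symbol alone: the TGF-beta, BMP, activin and inhibin subunit genes, the latent TGF-beta binding proteins, follistatin, noggin and gremlin, the receptors, the Smads, the Smurf, Tgif1, Ski and Skil regulators, and the Id genes. Of the 25697 probes in the table, 74 matched, for 46 of 18138 gene symbols. A filter on dim probes kept 58 of these probes, for 38 genes, among 16848 probes in all. The 8 genes with probes that were all left out were Acvr1b, Bmp10, Bmp2, Bmp6, Grem1, Nog, Smad7 and Smad9. Inhbb, Smad4, Smurf2 and Ski were not analysed here. In genes with several kept probes, the brightest one stood for the gene, and a level of one probe was not set against that of another.

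RNA was measured on 16 Illumina MouseRef-8 v2 arrays, 4 in each of 4 groups: control for 20 min, progesterone for 20 min, control for 2 h and progesterone for 2 h. The tubes came from immature C57BL/6N females, 3.5 to 5 weeks old, that had received no hormones. Whole tubes were opened lengthwise, cut and kept in G-MOPS, a medium for handling oocytes and embryos, and both arms held 0.01% ethanol, with 100 nmol/L progesterone in one of them. Each sample was a pool of 6 tubes, so p-values measure only the spread between these pools, and the tubes hold ciliated, secretory, muscle and stromal cells together. Control and progesterone samples shared pair codes (27n, 26n, 12n and 22ob at 20 min, 6d, 19n, 30o and 15o at 2 h). No pair spanned both time points, so time cannot be told apart from the mice of each time point or from any unlabelled batch.

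Ligands of this family are made as precursors, and those of the TGF-beta group are held in the matrix by latent TGF-beta binding proteins until they are released. An active ligand joins a type II and a type I receptor, the type I receptor phosphorylates Smad2 and Smad3 (TGF-beta and activin) or Smad1, Smad5 and Smad9 (BMP), and these enter the nucleus with Smad4. The Id genes are well-known targets of the BMP branch, and follistatin, Skil, Smad6 and Smad7 restrain the pathway, several of them as its own targets.

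Values are log2 of the quantile-normalized signal without background subtraction. A log2 difference of 1 is a doubling of that signal, background included. Per array, 13222 to 14267 probes had a detection p-value under 0.05, and the median signal before normalization was 116 to 161. On this detection measure Bmp15, an oocyte factor, was above background on 0 arrays of any group, and Inha, Ltbp2, Smurf1, Bmpr2, Bmp5, Acvr2a and Smad6 were above it in some of the arrays only. Their values lay near background throughout. The 2 h samples also varied in the markers of the tube wall: the mean log2 signal of 8 smooth muscle genes, relative to its mean over all arrays, was -1.47 in control 15o and -0.92 in progesterone 19n, against 0.61 and 0.55 in the control and progesterone samples of pair 6d. At 20 min the same score ranged from -0.28 to 0.48. Of the 4 ovary markers kept, 0 were above background on every array. Zp3 was above it on 15 arrays, Gdf9 on 6, Fshr on 1 and Foxl2 on 0.

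**Figure D1:**
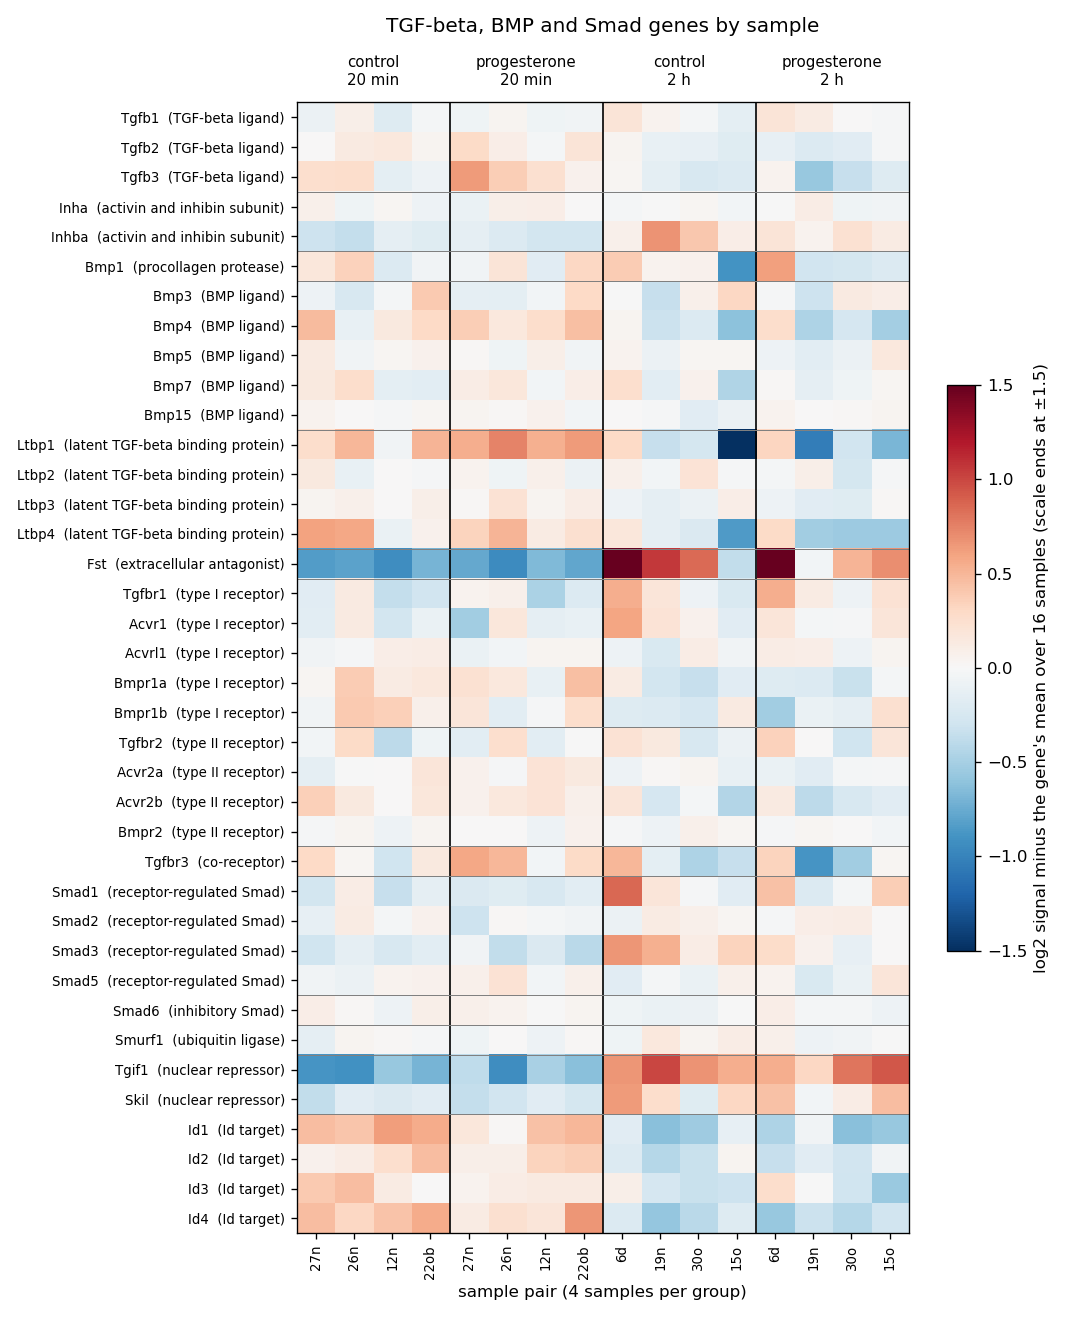
Colours show the log2 signal of each of the 38 kept genes (rows, with their role) in each of the 16 samples (columns, named by pair and grouped by treatment and time), minus the gene's mean over the samples. Tgif1 and Fst are low at 20 min and high in most 2 h samples, Id1, Id2 and Id4 run the other way, and Ltbp1 is lowest in control 15o and progesterone 19n at 2 h.

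The first comparison asked which members differed between progesterone and control after 20 min. 0 of the 38 genes passed an adjusted p of 0.20 (limma with the pair as a block, Benjamini-Hochberg over all 16848 probes), as did 0% of all probes. An unadjusted p under 0.05 was reached by 4 of the 38 genes and by 847 of all probes, or 5.03%. The paired SAM test called 0 members and 1 probe in all. Of the 38 genes, 22 had a higher mean with progesterone and 16 a lower one, with a median difference of 0.01 against 0.00 over all probes. The members with the smallest p-values were Tgfbr3, Ltbp1, Tgfb3, Id1 and Tgif1.

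Tgfbr3 (betaglycan), a co-receptor that presents TGF-beta ligands, was at 9.63, 9.35, 9.03 and 9.47 in the controls of pairs 27n, 26n, 12n and 22ob and at 9.91, 9.82, 9.28 and 9.62 with progesterone. Progesterone was the higher arm in each pair, but the 2 groups overlapped. The mean difference was 0.29 ± 0.07 (SE, n = 4 pairs), with an adjusted p of 0.948 in limma.

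Ltbp1, the best-known carrier of latent TGF-beta, was at 10.51, 10.73, 10.19 and 10.75 in the controls and at 10.78, 10.98, 10.77 and 10.88 with progesterone. The 4 progesterone samples lay above the 4 controls, by 0.31 ± 0.08 (SE) on average. Tgfb3, a TGF-beta ligand, was at 8.90, 8.90, 8.50 and 8.57 in the controls and at 9.28, 9.01, 8.88 and 8.70 with progesterone. It was the higher in each pair, by 0.25 ± 0.07 (SE), with overlapping groups. The adjusted p of both genes was 0.948 in limma. Without normalization Tgfbr3, Ltbp1 and Tgfb3 differed by 0.46, 0.47 and 0.44, where all probes shifted by a median of 0.13. With median scaling they differed by 0.38, 0.38 and 0.35 (adjusted p = 0.517), against a median of 0.039. The other kept probes of Ltbp1, which were near background and not detected on most arrays, gave -0.018 and -0.068. The dimmer Tgfbr3 probe gave 0.063 and was higher with progesterone in each pair. The fibroblast markers had a higher mean with progesterone in 5 of 7 genes at 20 min, with a median of 0.18, the endothelial markers in 6 of 6 (0.099), the ciliated ones in 6 of 7 (0.13) and the smooth muscle ones in 6 of 8 (0.053), with none called. The fibroblast score was higher with progesterone in pairs 27n, 12n and 22ob, at 0.68, -0.16 and 0.61 against 0.50, -0.28 and 0.27, but not in 26n, at 0.69 against 0.87. When the smooth muscle score entered the model, Tgfbr3, Ltbp1 and Tgfb3 differed by 0.35, 0.26 and 0.21, with adjusted p-values of 0.387, 0.524 and 0.559. The part of cell content in these differences was not tested.

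Id1, an inhibitor of basic helix-loop-helix factors, was at 9.52, 9.47, 9.68 and 9.61 in the controls and at 9.22, 9.07, 9.49 and 9.56 with progesterone. Its mean was lower by 0.23 (log2 difference -0.23 ± 0.07, SE, adjusted p = 0.948 in limma), in each of the 4 pairs, and the groups overlapped. It was -0.043 without normalization and -0.13 with median scaling. Id4 and Id3 were also lower on average, by -0.14 ± 0.08 and -0.14 ± 0.09 (SE), and Id2 was at -0.0052 ± 0.060, but without normalization Id2 turned to 0.17 and Id3 to 0.026. Differences of one sign in all 4 pairs were seen in 5 of the 38 genes (Tgfbr3, Ltbp1 and Tgfb3 higher, Id1 and Acvrl1 lower), against 12.8% of all probes. Tgif1, a nuclear repressor of Smad targets, was at 8.82, 8.81, 9.15 and 9.01 in the controls and at 9.33, 8.78, 9.22 and 9.09 with progesterone. Its mean difference of 0.16 ± 0.09 (SE, adjusted p = 0.948 in limma) came mostly from pair 27n, without which it was 0.041, and its other 2 probes gave -0.034 and -0.012. Tgfb1, Tgfb2 and Inhba, with the values in each sample given below, differed by 0.019 ± 0.061, 0.052 ± 0.080 and 0.023 ± 0.073 (SE), so their means lay within the spread of the pairs.

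After 2 h, 0 of the 38 genes passed the adjusted p of 0.20 in limma, against 0.00594% of all probes, which is 1 probe. An unadjusted p under 0.05 was reached by 1 of the 38 members and by 437 of all probes, or 2.59%. The paired SAM test called 0 members and 17 probes. With progesterone 15 genes had a higher mean and 23 a lower one, with a median of -0.03. Smad3 was the member with the largest difference.

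Smad3, which carries TGF-beta and activin signals to the nucleus, was at 9.13, 9.01, 8.58 and 8.81 in the controls of pairs 6d, 19n, 30o and 15o and at 8.75, 8.54, 8.35 and 8.48 with progesterone. Progesterone was the lower arm in each pair, although the highest progesterone sample lay above the lowest control. The mean log2 difference was -0.35 ± 0.07 (SE, n = 4 pairs), with a 95% confidence interval from -0.51 to -0.19. Its p-value ranked 11 among the 16848 probes, and its adjusted p was 1 in limma, so the difference did not pass the test. It ranged from -0.39 to -0.31 when each pair was left out in turn, and it was -0.35 when the smooth muscle score entered the model, with an adjusted p of 0.427.

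**Figure D2:**
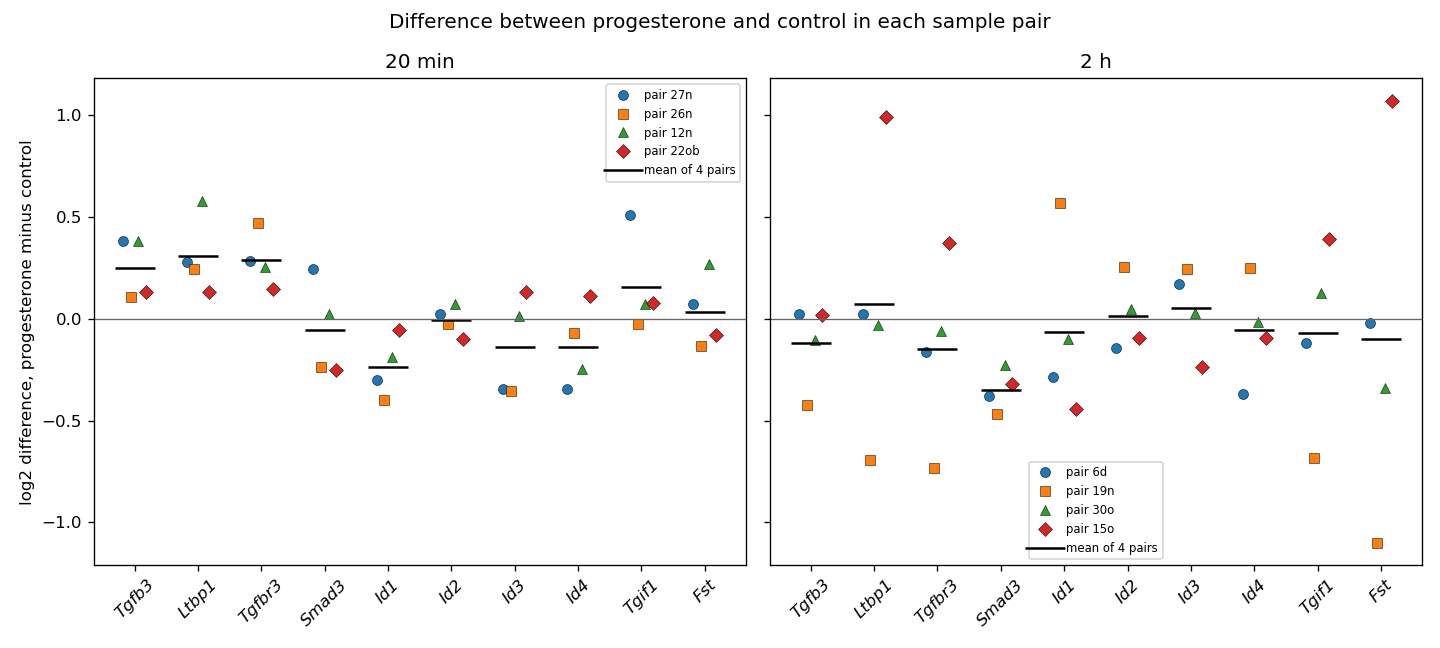
Points give the log2 difference between progesterone and control within each sample pair for 10 genes, at 20 min (left) and 2 h (right), and black bars give the mean of 4 pairs. At 2 h the 4 Smad3 points lie between -0.47 and -0.23, whereas Fst runs from -1.10 in pair 19n to 1.07 in pair 15o.

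The 4 other members with the smallest p-values at 2 h had smaller differences, and none passed the test. Inhba, the activin A subunit, was at 7.21, 7.80, 7.53 and 7.23 in the controls and at 7.32, 7.18, 7.35 and 7.25 with progesterone, a difference of -0.16 ± 0.12 (SE) that came mainly from pair 19n. Tgfb3 was at 8.67, 8.50, 8.40 and 8.43 in the controls and at 8.69, 8.07, 8.30 and 8.45 with progesterone, a difference of -0.12 ± 0.09 (SE). Without pair 19n the Inhba difference was -0.011 and that of Tgfb3 -0.019. The sign differed between pairs in both genes. Acvrl1, a type I receptor best known from vessels, was at 7.14, 6.99, 7.33 and 7.17 in the controls and at 7.34, 7.32, 7.14 and 7.27 with progesterone (0.11 ± 0.09, SE), and its difference was 0.035 without pair 19n and 0.21 without pair 30o. Bmp15 was at 6.87, 6.86, 6.71 and 6.79 against 6.92, 6.88, 6.89 and 6.92, so the progesterone samples lay just above the controls, but none of the arrays detected it. Each adjusted p was 1 in limma. Differences of one sign in all 4 pairs occurred in 3 of the 38 genes (Smad3 lower, Bmp15 and Tgfb1 higher), against 10.4% of all probes. Tgfb1, Tgfb2, Id1, Id2 and Id3 differed by 0.062 ± 0.067, -0.039 ± 0.077, -0.063 ± 0.149, 0.016 ± 0.084 and 0.053 ± 0.091 (SE).

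Whether the progesterone difference itself changed between 20 min and 2 h was tested over all 16 arrays. 0 of the 38 genes passed the adjusted p of 0.20, against 0.00594% of all probes. An unadjusted p under 0.05 was reached by 699 of all probes, or 4.15%, and by 3 of the 38 members. These were Tgfb3, with a change of -0.37 ± 0.12 (SE), Smad3, with -0.29 ± 0.12 (SE), and Tgfbr3, with -0.44 ± 0.18 (SE), each at an adjusted p of 0.999 in limma. The Tgfbr3 value was -0.24 without pair 19n and -0.61 without pair 15o, and the Smad3 value was -0.19 without pair 27n. Acvrl1 and Smad2 followed, with 0.16 ± 0.11 and 0.12 ± 0.08 (SE). At 20 min Acvrl1 was at 7.17, 7.21, 7.32 and 7.33 in the controls and at 7.12, 7.19, 7.26 and 7.26 with progesterone. Smad2, the other TGF-beta and activin Smad, was at 8.37, 8.61, 8.46 and 8.56 in the controls and at 8.18, 8.50, 8.46 and 8.44 with progesterone at 20 min. At 2 h it was at 8.40, 8.61, 8.57 and 8.52 in the controls and at 8.48, 8.59, 8.60 and 8.49 with progesterone, so its groups overlapped at both times. Smad3 at 20 min was at 8.17, 8.34, 8.23 and 8.32 in the controls and at 8.42, 8.11, 8.26 and 8.07 with progesterone, with no common sign, so its lower level with progesterone was seen at 2 h, while the change between the times did not pass the test.

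The comparisons between 2 h and 20 min were made within each arm, at an adjusted p of 0.05. In the controls 4 of the 38 genes rose (Tgif1, Fst, Smad3 and Inhba), against 6.01% of all probes, and 3 fell (Id1, Id2 and Id4), against 5.33%. With progesterone 4 genes rose (Tgif1, Fst, Inhba and Skil), against 7.19% of all probes, and 8 fell (Id1, Id2, Id4, Ltbp1, Ltbp4, Tgfb3, Tgfb2 and Bmp4), against 7.79%. Without normalization the split was 2 risen and 10 fallen in the controls and 2 and 17 with progesterone. The median of all probes then shifted by -0.17 and -0.23, and the cause of the changed counts was not tested. The shares of all probes above belong to the quantile-normalized fit. They are not given for the fit without normalization, so its split is not a result about the members. The 6 genes Tgif1, Fst, Inhba, Id1, Id2 and Id4 passed in both arms, in the same direction, as did 8.35% of all probes. The test of the progesterone difference between the times is also the test of whether these time differences depended on the arm, and 0 members passed it. In whole tubes, fewer cells of a type and less RNA per cell cannot be told apart.

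**Figure D3:**
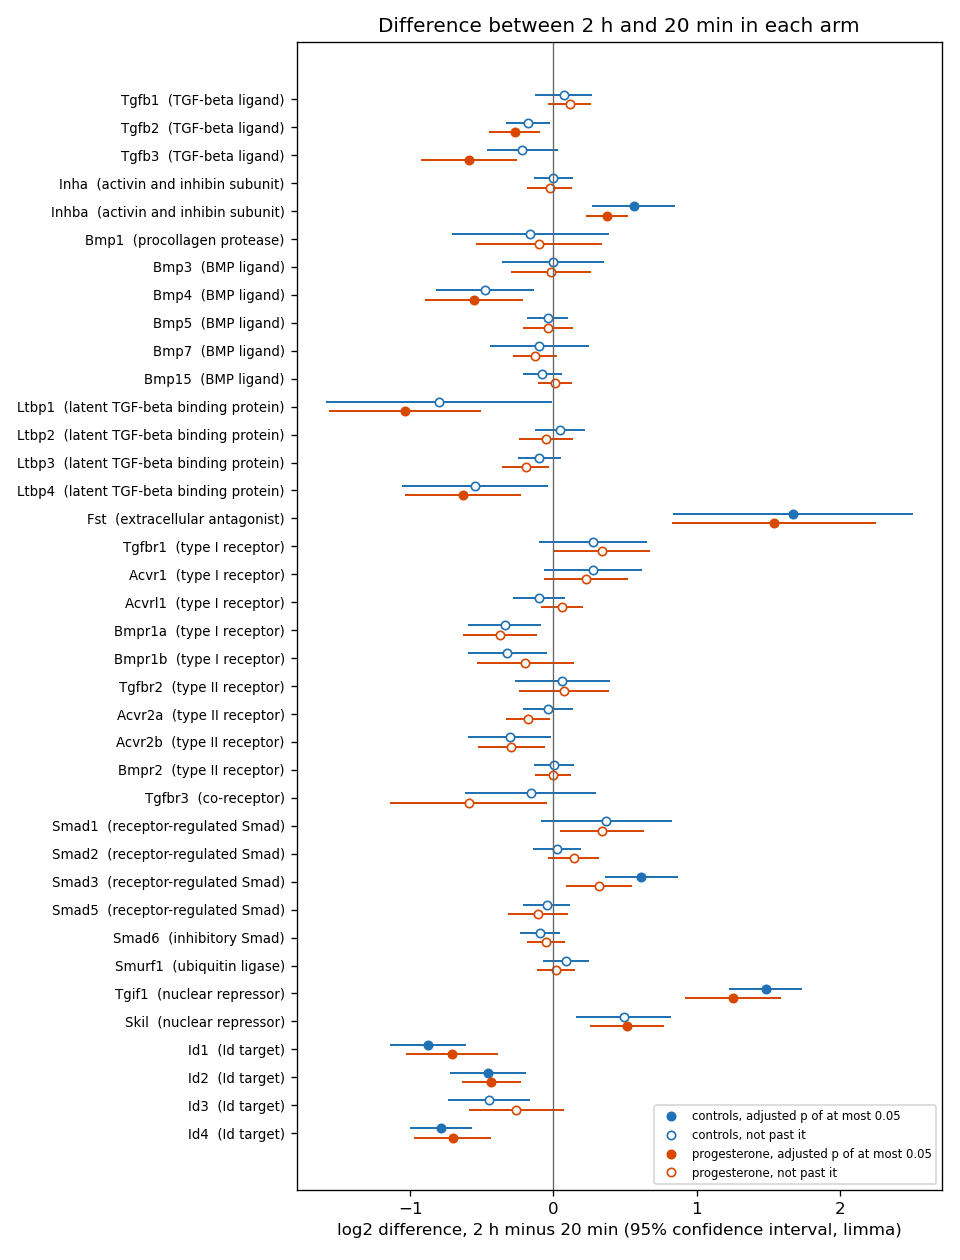
Points give the log2 difference between 2 h and 20 min for the 38 genes in the control arm (blue) and the progesterone arm (orange), with 95% confidence intervals from limma, and filled points passed an adjusted p of 0.05. Tgif1 and Fst lie farthest to the right and Ltbp1, Id1 and Id4 farthest to the left, and the intervals of both arms overlap in every gene.

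Tgif1, the repressor that recruits corepressors to Smad2 and Smad3, showed the smallest p of the set in both arms. In the controls it was at 8.82, 8.81, 9.15 and 9.01 at 20 min and at 10.37, 10.71, 10.38 and 10.25 at 2 h. With progesterone it was at 9.33, 8.78, 9.22 and 9.09 at 20 min and at 10.26, 10.02, 10.51 and 10.64 at 2 h. Every 2 h sample was above every 20 min sample. The log2 difference was 1.48 ± 0.11 (SE, n = 4 against 4, 2.79-fold, adjusted p = 4.69e-05 in limma) in the controls and 1.25 ± 0.15 (2.38-fold, adjusted p = 0.000545) with progesterone. The other 2 probes of Tgif1 rose as well, by 1.66 and 1.28 in the controls and by 1.59 and 1.18 with progesterone. Tgif1 passed the test under each of the 15 alternatives run in both arms.

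Fst encodes follistatin, a secreted protein that binds and blocks activins. In the controls it was at 7.18, 7.22, 7.09 and 7.33 at 20 min and at 9.90, 9.08, 8.87 and 7.65 at 2 h. With progesterone it was at 7.26, 7.08, 7.36 and 7.25 at 20 min and at 9.88, 7.98, 8.53 and 8.72 at 2 h. The 2 h samples lay above the 20 min samples in both arms, but over a wide range: pair 6d was highest, and control 15o and progesterone 19n, the samples with the lowest smooth muscle scores, were lowest. The difference was 1.67 ± 0.37 (SE, 3.19-fold, adjusted p = 0.0202) in the controls and 1.54 ± 0.32 (2.91-fold, adjusted p = 0.0106) with progesterone. With normexp background correction the log2 differences were 2.81 and 2.63, with adjusted p-values of 0.00457 and 0.00112. Fst was detected in every 20 min sample, but its signal there was dim. The size of its rise therefore depends on the background correction. The control value lost its call without control 27n at 20 min (adjusted p = 0.0524), control 19n at 2 h (0.0655) or control 30o at 2 h (0.0554). When the smooth muscle score entered the model it was 2.10, with an adjusted p of 1.52e-05, and the progesterone value was 2.08, with an adjusted p of 8.56e-05.

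Inhba was below detection in the 4 controls at 20 min, where its signal was 6.82, 6.77, 6.99 and 6.95, and was detected in the 4 controls at 2 h. Its rise in the controls was therefore at least 1.37-fold, set against the dimmest detected probes, with an adjusted p of 0.0234 in limma. With progesterone it was detected in 1 of 4 samples at 20 min (6.997, 6.93, 6.85 and 6.85) and in 4 of 4 at 2 h, a difference of 0.37 ± 0.07 (SE, adjusted p = 0.00463). Its 2 h samples lay above the 20 min samples in both arms. The control call was lost without control 27n or 26n at 20 min (adjusted p = 0.0634 and 0.0646) or control 30o at 2 h (0.0681), and both calls were lost without normalization (0.113 and 0.0966). With normexp background correction the fitted differences were 1.56 and 1.17 (adjusted p = 0.00462 and 0.000437). As most 20 min samples did not detect Inhba, these fitted values depend on the background correction and do not measure the size.

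Smad3 rose in the controls, from the 20 min values of 8.17 to 8.34 to the 2 h values of 8.58 to 9.13, by 0.61 ± 0.11 (SE, 1.53-fold, adjusted p = 0.00795), with no overlap between the times. With progesterone the difference was 0.32 ± 0.10 (SE, adjusted p = 0.0653), and the highest 20 min sample, at 8.42, overlapped the lowest 2 h sample, at 8.35. The control call did not hold without normalization (0.30, adjusted p = 0.231) or with median scaling (0.41, adjusted p = 0.0558), and without normalization the progesterone value turned to -0.083. The progesterone value passed without progesterone 27n at 20 min (0.39, adjusted p = 0.0414) and with the smooth muscle score in the model (0.40, adjusted p = 0.0386). Means of pairs, which pool both arms, gave 0.47 (adjusted p = 0.00742). Skil, which encodes the Smad corepressor SnoN, was at 8.89, 8.97, 9.08 and 8.99 at 20 min and at 9.70, 9.21, 9.37 and 9.73 at 2 h with progesterone, with no overlap. This was a rise of 0.51 ± 0.12 (SE, adjusted p = 0.0151), which without normalization was 0.080, with an adjusted p of 0.645, and with median scaling 0.23, with 0.178. In the controls the Skil difference was 0.49 ± 0.15 (SE, adjusted p = 0.0646), where control 30o at 2 h, at 9.07, lay among the 20 min samples. Without that sample the difference was 0.64, with an adjusted p of 0.00863.

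**Figure D4:**
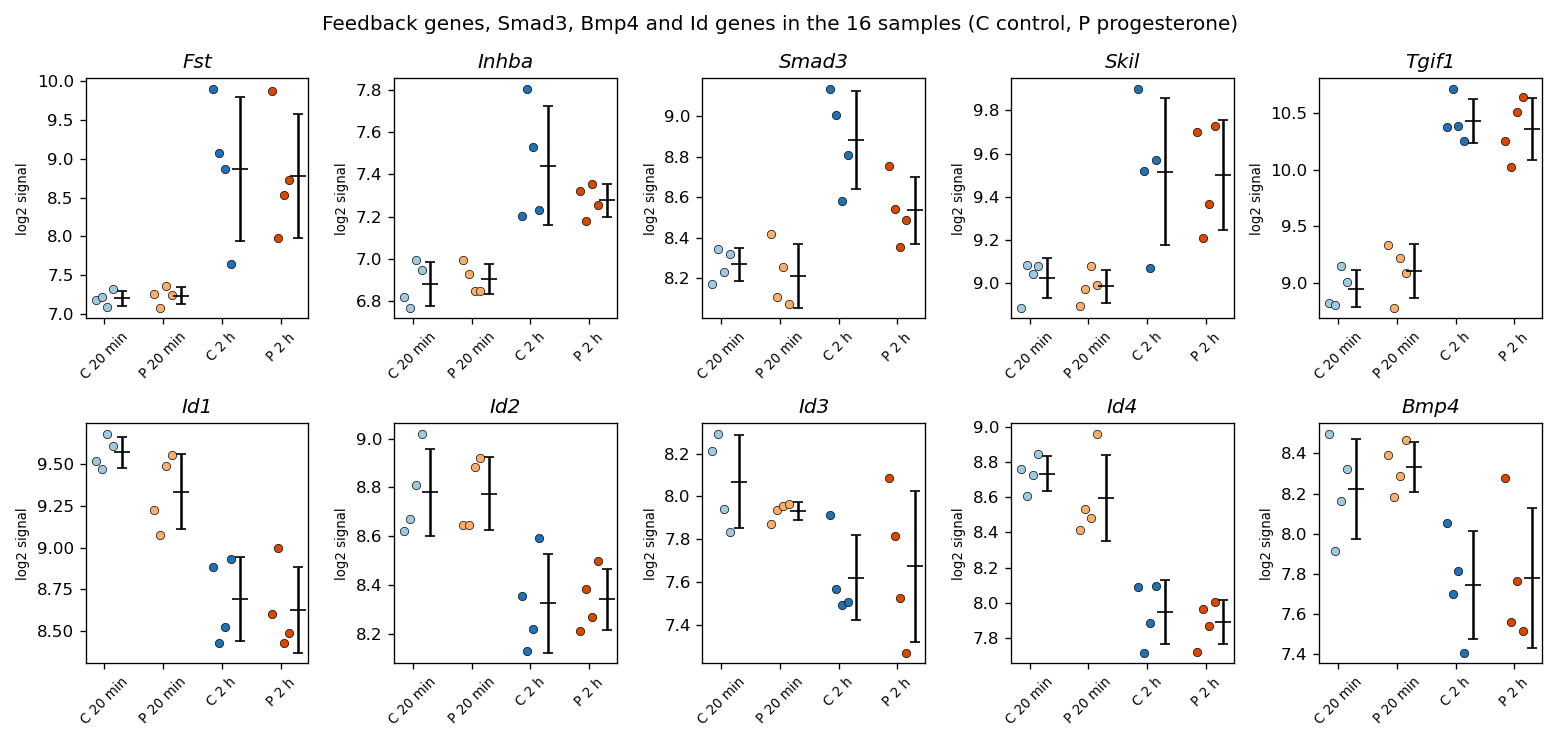
Log2 signal of 10 genes in each of the 16 samples (points, 4 per group) with the group mean and SD (bars to the right of the points). The 2 h samples of Tgif1, Fst and Inhba lie above all 20 min samples of the same arm, and those of Id1, Id2 and Id4 lie below them. Called genes were named by a rule that asked for such a gap, so the gap is no separate result.

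The Id genes encode proteins that bind basic helix-loop-helix factors and keep them off DNA. Id1 in the controls was at 9.52, 9.47, 9.68 and 9.61 at 20 min and at 8.88, 8.43, 8.52 and 8.93 at 2 h, and with progesterone at 9.22, 9.07, 9.49 and 9.56 and then at 8.60, 8.9995, 8.43 and 8.49. The times did not overlap in either arm, although the progesterone arm came close, at 8.9995 against 9.07. Id1 fell by 0.88 on the log2 scale (-0.88 ± 0.12, SE, 1.84-fold lower, adjusted p = 0.00155) in the controls and by 0.71 (-0.71 ± 0.14, 1.63-fold lower, adjusted p = 0.00958) with progesterone.

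Id4 in the controls was at 8.76, 8.60, 8.72 and 8.85 at 20 min and at 8.09, 7.72, 7.89 and 8.10 at 2 h, and with progesterone at 8.42, 8.53, 8.48 and 8.96 and then at 7.72, 7.97, 7.87 and 8.01. The times were again apart in both arms. Id4 fell by 0.79 (-0.79 ± 0.10, SE, adjusted p = 0.000919) in the controls and by 0.71 (-0.71 ± 0.12, adjusted p = 0.00379) with progesterone. Like Tgif1, Id1 and Id4 passed under each of the 15 alternatives in both arms. Over these, Id1 ranged from -1.18 to -0.79 in the controls and from -1.14 to -0.63 with progesterone. Id4 ranged from -1.14 to -0.71 in the controls and from -1.09 to -0.59 with progesterone.

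Id2 in the controls was at 8.62, 8.67, 8.81 and 9.02 at 20 min and at 8.35, 8.13, 8.22 and 8.59 at 2 h, and with progesterone at 8.64, 8.65, 8.88 and 8.92 and then at 8.21, 8.38, 8.27 and 8.50. It fell by 0.45 (-0.45 ± 0.12, SE, adjusted p = 0.0372) in the controls and by 0.43 (-0.43 ± 0.09, adjusted p = 0.0119) with progesterone. Over the 15 alternatives the Id2 difference ranged from -0.75 to -0.38 in the controls and from -0.85 to -0.38 with progesterone. The control call was lost in 7 of the 15 alternatives, with adjusted p-values up to 0.105, among them without control 26n, 12n or 22ob at 20 min or 6d, 19n or 30o at 2 h, and the dimmer Id2 probe, near background, gave -0.037 and -0.11. Id3 in the controls was at 8.21, 8.29, 7.94 and 7.83 at 20 min and at 7.91, 7.57, 7.49 and 7.51 at 2 h, a difference of -0.45 ± 0.13 (SE, adjusted p = 0.0503) with 1 sample of overlap, that of pair 6d. With progesterone Id3 was at 7.87, 7.94, 7.96 and 7.96 and then at 8.08, 7.81, 7.52 and 7.27, a difference of -0.26 ± 0.15 (SE, adjusted p = 0.296), so it did not pass in either arm. Without normalization or with median scaling it passed in both (adjusted p from 0.00649 to 0.0275). The control value also passed without control 22ob at 20 min (0.0398) or control 6d at 2 h (0.0165), and the progesterone value without progesterone 6d at 2 h (-0.40, adjusted p = 0.0426), which without progesterone 15o at 2 h was -0.12 (adjusted p = 0.570). In all, Id3 passed in 6 of the 15 alternatives in the controls and in 3 of the 15 with progesterone.

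Because Id2, Id3 and Id4 had lower means at 2 h in both arms, the 300 bases around their starts (250 before and 50 after, RefSeq, GRCm38.p6) are shown. A window was given for 33 of the 46 member genes and for 3 of the 4 Id genes, the fourth being Id1. They were searched on both strands for GGCGCC, the GC-rich element that Smad1 and Smad5 are known to bind, and for GTCTAGAC, the palindrome of Smad3. GGCGCC, in capitals, occurred in 1 place in Id2 (chr12:25096043-25096342, minus strand) and 1 in Id4 (chr13:48260866-48261165, plus strand) and in 0 places in Id3 (chr4:136143572-136143871, plus strand). It is present in 11.9% of the 32851 mouse windows of this length, and GTCTAGAC, which was found in 0 of the 3, in 0.213%. Both motifs read the same on either strand and cannot overlap each other, and a match is a description of these letters only.
Id2: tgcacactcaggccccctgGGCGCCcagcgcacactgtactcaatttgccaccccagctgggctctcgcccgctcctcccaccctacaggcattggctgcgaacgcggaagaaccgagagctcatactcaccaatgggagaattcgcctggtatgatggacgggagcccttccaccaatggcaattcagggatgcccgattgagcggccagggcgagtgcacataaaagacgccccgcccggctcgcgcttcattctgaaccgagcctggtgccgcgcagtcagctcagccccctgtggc
Id3: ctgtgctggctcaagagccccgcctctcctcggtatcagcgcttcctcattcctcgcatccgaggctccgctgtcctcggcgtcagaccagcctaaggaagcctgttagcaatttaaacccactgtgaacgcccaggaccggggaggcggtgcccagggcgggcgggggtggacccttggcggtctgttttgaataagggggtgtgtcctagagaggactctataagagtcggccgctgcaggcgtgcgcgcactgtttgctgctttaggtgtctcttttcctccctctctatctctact
Id4: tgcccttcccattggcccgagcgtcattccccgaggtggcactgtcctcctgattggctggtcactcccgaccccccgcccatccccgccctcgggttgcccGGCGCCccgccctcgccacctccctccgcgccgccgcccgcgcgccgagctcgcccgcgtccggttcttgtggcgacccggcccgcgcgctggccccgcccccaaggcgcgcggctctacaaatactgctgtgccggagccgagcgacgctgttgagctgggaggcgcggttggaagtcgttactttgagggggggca

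Among the ligands and their carriers other than Inhba, 0 passed in the controls, and Ltbp1, Ltbp4, Tgfb3, Tgfb2 and Bmp4 passed with progesterone. Ltbp1 with progesterone was at 10.78, 10.98, 10.77 and 10.88 at 20 min and at 10.56, 9.20, 9.95 and 9.55 at 2 h, with no overlap, and fell by 1.04 (-1.04 ± 0.24, SE, 2.05-fold lower, adjusted p = 0.0170). In the controls it was at 10.51, 10.73, 10.19 and 10.75 and then at 10.54, 9.89, 9.98 and 8.56, a difference of -0.80 ± 0.35 (SE, adjusted p = 0.189). Control 15o was lowest by far, and without it the difference was -0.41, with an adjusted p of 0.206. It passed without normalization (-1.08, 0.0365), with the smooth muscle score in the model (-0.39, 0.0377) and over means of pairs of both arms (-0.92, 0.0438). Pair 6d lay among the 20 min samples. The dimmer Ltbp1 probes gave -0.14 and -0.022 in the controls and -0.081 and 0.11 with progesterone. Ltbp4, another carrier, was between 11.05 and 11.44 at 20 min and at 11.23, 10.41, 10.39 and 10.39 at 2 h with progesterone, and fell by 0.63 (-0.63 ± 0.18, SE, adjusted p = 0.0439) with overlap from pair 6d. In the controls its difference was -0.55 ± 0.23 (SE, adjusted p = 0.168), or -0.35 without control 15o at 2 h, and passed without normalization (-0.78, 0.0137) and with median scaling (-0.67, 0.0449). The dimmer Ltbp4 probes gave -0.79 (adjusted p = 0.0469) and -0.096 (0.606) with progesterone and -0.60 and -0.20 in the controls. The difference between the arms did not pass. Ltbp3 and Ltbp2 did not pass in either arm.

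Tgfb3 with progesterone was at 9.28, 9.01, 8.88 and 8.70 at 20 min and at 8.69, 8.07, 8.30 and 8.45 at 2 h, just without overlap, and fell by 0.59 (-0.59 ± 0.15, SE, adjusted p = 0.0256). In the controls its difference was -0.22 ± 0.11 (SE, adjusted p = 0.258), which passed without normalization (-0.52, adjusted p = 0.0224) and with median scaling (-0.41, 0.0224). Tgfb2 with progesterone was at 7.86, 7.67, 7.54 and 7.76 and then at 7.44, 7.36, 7.40 and 7.55, with pair 15o overlapping pair 12n, and fell by 0.27 (-0.27 ± 0.08, SE, adjusted p = 0.0477). In the controls it was at 7.58, 7.70, 7.73 and 7.61 and then at 7.61, 7.46, 7.45 and 7.39, a difference of -0.18 ± 0.07 (SE, adjusted p = 0.135) that passed with median scaling (-0.28, 0.0365). Means of pairs, over both arms, gave -0.40 (0.0440) for Tgfb3 and -0.23 (0.00803) for Tgfb2. The Tgfb3 call did not hold without progesterone 27n or 26n at 20 min or 19n or 30o at 2 h (adjusted p from 0.0567 to 0.0754). That of Tgfb2 did not hold without 27n, 26n or 22ob at 20 min or 6d, 19n or 30o at 2 h (0.0679 to 0.118). Over the 15 alternatives the progesterone values ranged from -1.02 to -0.37 for Tgfb3 and from -0.56 to -0.20 for Tgfb2. Tgfb1, the ligand most studied in immune and stromal cells, was at 7.37, 7.54, 7.27 and 7.43 at 20 min and at 7.64, 7.51, 7.43 and 7.30 at 2 h in the controls, and at 7.39, 7.49, 7.40 and 7.40 and then at 7.65, 7.57, 7.46 and 7.44 with progesterone. Its differences of 0.07 ± 0.09 and 0.11 ± 0.07 (SE) did not pass, and they turned to -0.13 and -0.16 without normalization and to -0.016 and -0.013 with median scaling.

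Bmp4, the BMP ligand with the largest difference, was at 8.39, 8.18, 8.29 and 8.47 at 20 min and at 8.28, 7.56, 7.76 and 7.51 at 2 h with progesterone, and fell by 0.55 (-0.55 ± 0.15, SE, adjusted p = 0.0380), with pair 6d among the 20 min samples. In the controls it was at 8.50, 7.91, 8.16 and 8.32 and then at 8.06, 7.70, 7.81 and 7.41 (-0.48 ± 0.15, SE, adjusted p = 0.0790). The control value passed in 5 of the 15 alternatives, among them without control 26n at 20 min (0.0483) or control 6d at 2 h (0.0335). Over the 15 it ranged from -0.80 to -0.36, with adjusted p-values in limma from 0.00762 to 0.183. Leaving out progesterone 6d left the calls of Bmp4 and Ltbp4 (adjusted p = 0.000937 and 0.000422), and leaving out any of the other 7 samples ended both (adjusted p from 0.0562 to 0.124). Bmp7, Bmp5, Bmp3 and Bmp15 did not pass, with differences from -0.13 to 0.011, nor did Bmp1, a procollagen protease named for its purification with the BMPs, on its brightest probe. A dimmer Bmp1 probe fell with progesterone (-0.46, adjusted p = 0.0471).

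None of the 10 receptors and co-receptors passed on its brightest probe in either arm, against the shares of all probes given above, and 3 of the 10 had an unadjusted p under 0.05 in limma in the controls and 4 with progesterone, beside 25.6% and 28.8% of all probes on that measure. Bmpr1a and Bmpr1b, type I receptors for BMPs, had differences of -0.34 and -0.32 in the controls and -0.37 and -0.20 with progesterone. Bmpr1a passed in the controls without control 6d at 2 h (-0.44, adjusted p = 0.0195) and with progesterone without progesterone 12n at 20 min (-0.47, adjusted p = 0.0165). It also passed without normalization (-0.65 and -0.80, adjusted p = 0.0326 and 0.00229), with median scaling (-0.54 and -0.66, adjusted p = 0.0283 and 0.00428), over means of pairs (-0.36, adjusted p = 0.0212) and, with progesterone, under the strict filter (adjusted p = 0.0488). Acvr2b, a type II receptor for activins, had differences of -0.31 and -0.30. Tgfbr1 and Acvr1 lay on the other side, at 0.28 and 0.28 in the controls and 0.34 and 0.23 with progesterone. Tgfbr2 differed by 0.061 and 0.072 and Bmpr2 by 0.0043 and -0.0051. In the progesterone arm the largest difference of the 10 was that of Tgfbr3, which was at -0.16 ± 0.20 (SE, adjusted p = 0.6999) in the controls and -0.59 ± 0.24 (SE, adjusted p = 0.142) with progesterone. Its 2 h samples were at 9.83, 9.18, 8.86 and 8.98 in the controls and at 9.67, 8.45, 8.80 and 9.35 with progesterone, and overlapped the 20 min samples in both arms. Of the Smads, Smad1 differed by 0.37 ± 0.20 and 0.34 ± 0.13 (SE, adjusted p = 0.301 and 0.120), and Smad2 and Smad6 and the ligase Smurf1 by at most 0.14. The probes of Smad5 did not move alike. The brightest one gave -0.048 and -0.11, whereas a dimmer one (ILMN_3076864) rose by 0.31 and 0.35 (adjusted p = 0.0297 and 0.00274). A dimmer Bmpr1a probe fell in the controls (-0.20, adjusted p = 0.0435) and gave -0.040 with progesterone.

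**Figure D5:**
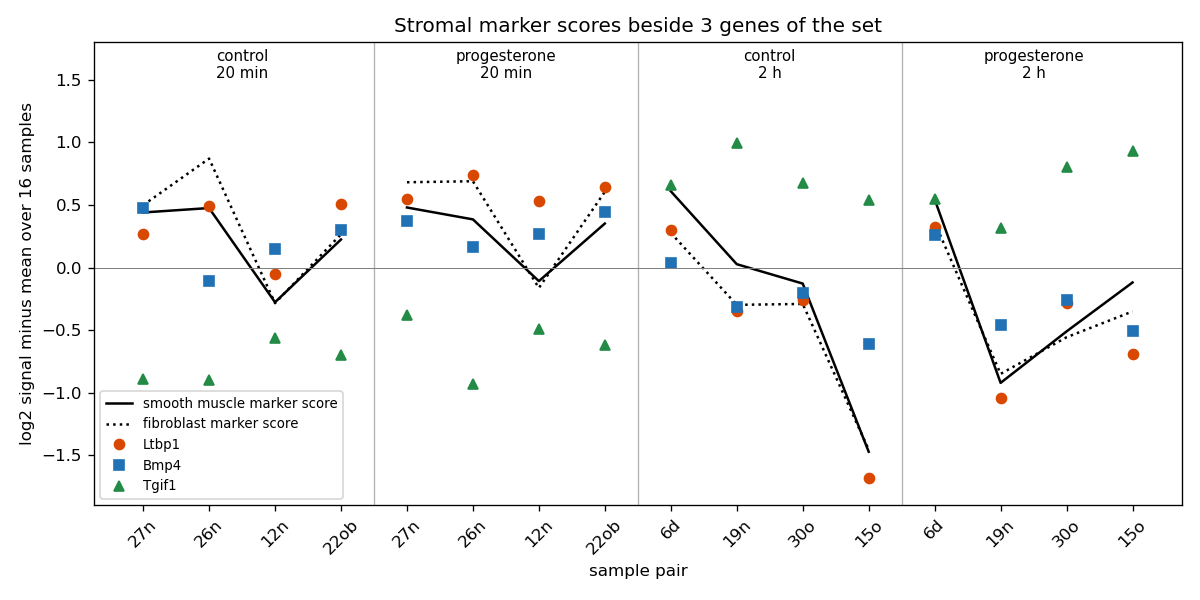
Lines give the mean log2 signal of 8 smooth muscle (solid) and 7 fibroblast (dotted) marker genes in each sample, and points give Ltbp1, Bmp4 and Tgif1, all relative to their mean over 16 samples. Ltbp1 and Bmp4 are low at 2 h in control 15o and progesterone 19n, where the scores are low. Both genes are also low in progesterone 15o, where the smooth muscle score is -0.12, and Tgif1 is high in all 2 h samples.

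Outside the Id group, the genes that fell over time in the progesterone arm were compared with the stromal markers. Ltbp1, Tgfb3 and Tgfb2 had their lowest 2 h progesterone value in pair 19n, where the smooth muscle and fibroblast scores of that arm were lowest, whereas Bmp4 was lowest in pair 15o and Ltbp4 in pair 30o. Between 20 min and 2 h, 7 of 7 fibroblast markers had a lower mean in both arms, of which 1 passed in the controls and 2 with progesterone, and 7 of 8 smooth muscle markers were lower, of which 0 passed. The fibroblast score ranged from -0.28 to 0.87 in the 20 min controls and from -1.46 to 0.28 in the 2 h controls, and from -0.16 to 0.69 and from -0.85 to 0.36 with progesterone. The secretory epithelium markers were higher at 2 h in 5 of 6 genes in both arms, with 3 passing. When the smooth muscle score entered the model, an alternative chosen after the data were seen, the progesterone value of Ltbp1 was -0.66 (adjusted p = 0.0283), and Tgfb3, Bmp4, Ltbp4 and Tgfb2 were at -0.37, -0.35, -0.34 and -0.20 and no longer passed (adjusted p = 0.0674, 0.125, 0.118 and 0.163). The same covariate left Tgif1 at 1.495 and 1.29, Id1 at -0.93 and -0.83 and Id4 at -0.81 and -0.76, all past the test. The mean smooth muscle score was itself lower at 2 h, at -0.24 against 0.22 in the controls and -0.25 against 0.28 with progesterone. The covariate therefore varied with time, and the part of cell content in any of these differences was not tested.

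Of 88 further genes of the pathway, listed apart from the members, 52 could be tested. With progesterone against control 0 passed in limma at either time, and 7 and 1 had an unadjusted p under 0.05 at 20 min and 2 h, beside 5.03% and 2.59% of all probes. The smallest p-values belonged to Fstl1 (0.23), Tgfb1i1 (0.20) and Gdf10 (0.25) at 20 min and to Hey1 (-0.24), Gdf15 (-0.25) and Fbn1 (-0.18) at 2 h, and for the difference between the times to Fbn1 (-0.35), Hey1 (-0.20) and Gdf9 (0.22). Over time 3 rose and 6 fell in the controls, and 4 rose and 11 fell with progesterone, beside shares of 6.01%, 5.33%, 7.19% and 7.79% of all probes. Gdf15, a distant member of the ligand family that is induced by stress, rose by 1.09 ± 0.11 and 0.95 ± 0.15 (SE, adjusted p = 0.000340 and 0.00219). Junb, a transcription factor of the AP-1 group and an early TGF-beta target, fell by 0.78 and 0.88 (-0.78 ± 0.11 and -0.88 ± 0.15, SE, adjusted p = 0.00246 and 0.00345). Msx1, a homeobox target of BMPs, fell by 0.64 (adjusted p = 0.00155) in the controls and by 0.53 (adjusted p = 0.00634) with progesterone. Hey1, a target shared with Notch, rose by 0.68 (adjusted p = 0.0138) in the controls and by 0.48 (adjusted p = 0.00375) with progesterone. Gdf10, a stromal ligand, fell by 1.78 (-1.78 ± 0.26, SE, adjusted p = 0.00165) with progesterone, and in the controls its difference was -1.41 ± 0.54 (SE, adjusted p = 0.136), with 2 h values that spread by 1.28 (SD).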

How the data were processed

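The authors hybridised RNA of 16 pooled samples to MouseRef-8 v2 BeadChips and deposited non-normalized signal intensity values per probe from GenomeStudio, with a detection p-value per probe and array. The deposited p-value measures how a probe ranks among negative control probes. All 16 arrays had a labelled column, and 0 columns were without a sample. A probe stayed in when 13 arrays or more gave it a detection p-value below 0.5. Intensities were quantile normalized without background subtraction. Their log2 values were tested with limma 3.58.1 (R 4.3.3) on 16848 probes, with p-values adjusted over all of them (Benjamini-Hochberg). Progesterone and control were compared with the pair as a block at an adjusted p of 0.20, the level used in the study's methods, and time within each arm at 0.05. The methods name 6 tubes of 3 animals for a sample and 1 tube of each mouse for each arm, which cannot both hold, so how arms share mice is not settled here. Deviations from group means correlated at 0.35 to 0.55 within the pairs of 20 min and at 0.00049 to 0.65 within those of 2 h, over probes. The number of arrays limits the precision.

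Values in every sample were given for the 5 members with the smallest p in each progesterone comparison, for called members whose 4 and 4 arrays did not overlap over time (up to 10), and for Tgfb1, Tgfb2, Tgfb3, Inhba, Id1, Id2 and Id3. Lack of overlap over time was thus part of the choice, and the share of all probes without overlap is not given. Id4 is given by the same rule, and Bmp4, Ltbp4 and others given in full were chosen after their values were seen. Members, marker lists (ciliated, secretory, smooth muscle, fibroblast, endothelial, blood, fat, ovary and skeletal muscle) and the further pathway genes were chosen with earlier results of these data known. Alternatives were no normalization, median scaling, normexp background correction, other filters, no block, paired SAM and leaving out samples, and, chosen after seeing the data, the smooth muscle score as a covariate and means of pairs, which pool both arms. Figures were drawn with matplotlib 3.10.9.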

Additional observations from a re-analysis of the deposited data

Results flagged for a closer look

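In groups of 4 samples, a sample was singled out where its gap to the nearest of the others exceeded Dixon's critical value. Of 116 groups of named genes and marker scores examined, 4 held such a sample, and chance alone gives about 1 in 20, or 5.8. Tgfb1 with progesterone at 20 min was at 7.49 in pair 26n and between 7.39 and 7.40 in the other samples. Ltbp4 with progesterone at 2 h was at 11.23 in pair 6d and between 10.39 and 10.41 in the others. The ciliated marker score of the 2 h controls was -0.30 in pair 6d and between 0.17 and 0.26 in the others. The fibroblast marker score with progesterone at 20 min was -0.16 in pair 12n and between 0.61 and 0.69 in the others.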

How the results depend on the processing

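The count of members past the test was 0 in each progesterone comparison and in their difference under all alternatives, also with no replicate block (0 of 38). Counts of 0 cannot show that the paired and unpaired fits agree. The SE of Smad3 at 2 h was 0.071 with the block and 0.128 without it. In the controls over time the count of 7 became 12 with no normalization, 13 with median scaling and 12 with the smooth muscle covariate, and it ranged from 5 to 10 when single samples were left out. With progesterone the count of 12 became 19 with no normalization, 18 with median scaling and 11 with the covariate, and ranged from 8 to 14. Means of pairs, which pool both arms and so belong to neither, gave 13. The shares of all probes past the test under these alternatives are not given here, so the changed counts are not a result about the members. With no normalization Id2 was at 0.17 and Id3 at 0.026 at 20 min, Tgfb2 at 0.029 and Id1 at 0.0040 at 2 h, Tgfb1 at -0.029 and Id2 at -0.095 in the difference of the times, Tgfb1 at -0.13 and -0.16 over time in controls and with progesterone, and Smad3 at -0.083 over time with progesterone. All probes then shifted by a median of 0.13 at 20 min, 0.057 at 2 h and -0.067 in the difference, so these turns are to be read against those shifts. With median scaling Id2 was at 0.086 at 20 min and -0.062 in the difference, and Tgfb1 at -0.016 and -0.013 over time. With the covariate Tgfb1 was at -0.0099 at 20 min. Without single pairs, at 20 min Tgfb1 ranged from -0.018 to 0.041, Tgfb2 from -0.024 to 0.13, Inhba from -0.028 to 0.080 and Id2 from -0.032 to 0.025. At 2 h Tgfb2 ranged from -0.10 to 0.0039, Id1 from -0.28 to 0.063, Id2 from -0.063 to 0.069 and Id3 from -0.012 to 0.15. In the difference Id1 ranged from -0.041 to 0.30 and Id2 from -0.058 to 0.074. The causes were not tested. Probes near background, such as those of Inhba at 20 min, bound the size of a difference rather than measure it.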
